A study of Mus musculus with 8 samples.

Results

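Pecam1, Cdh5, Kdr, Flt1, Tek, Tie1, Emcn, Egfl7, Nfatc1 and Npr3 are genes of the endothelium and of the endocardium, the endothelial lining of the heart. They were examined because cells sorted from whole hearts for a muscle or conduction identity can carry lining cells along. Every non-control probe whose gene name in the scanner files was one of these names was taken, which gave 21 of 41174 probes and 10 of 27729 gene names. The probe with the highest mean signal stood for its gene, and 5 of the 10 genes (Cdh5, Kdr, Flt1, Egfl7 and Nfatc1) had such a probe detected, that is, well above background, on 4 or more arrays of 8. These 5 were among the 12875 genes that were tested.

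The samples came from hearts of E10.5 mouse embryos (midgestation), all carrying the minKGFP transgene, in which green fluorescent protein reports minK (Kcne1), a potassium channel subunit. Hearts were digested with pancreatin and collagenase, and cells were sorted on green fluorescence; the protocols name no endothelial marker in the sort. The GFP-high group (4 arrays) was labelled as conduction system cells and the GFP-low group (4 arrays) as chamber myocardium. Only 5 ng of RNA per sample went into the amplification that preceded labelling. The labels call the samples biological replicates and do not say how many embryos went into each, and no GFP-negative sample was analysed here.

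At this stage the heart tube is muscle lined by endocardium, separated from it by a matrix that endocardial cells invade in the outflow tract and atrioventricular canal to form the valve cushions. Endothelial cells are held together by Pecam1 and by VE-cadherin, the product of Cdh5. They sense vascular endothelial growth factor through Kdr and Flt1, and carry Tek, the angiopoietin receptor, with its partner Tie1. Emcn encodes a sialomucin of the endothelial surface and Egfl7 a factor that endothelial cells secrete. In the embryonic heart Nfatc1 is a transcription factor of the endocardium needed for valve formation, and Npr3, the clearance receptor for natriuretic peptides, is also found in endocardium.

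The results below turn on what single 60-base probes saw. Below are those of 3 genes: Pecam1, the most widely used endothelial marker and above background on no array, Tie1, seen on 1 array, and Npr3, seen on 3 GFP-low arrays and no GFP-high array. They are copied from the array's probe annotation, 5′ to 3′ in the sense of the transcript, and no letter is capitalised because no part of a probe is singled out. All 3 genes lie on the minus strand of mouse build mm9.
Pecam1 (chr11:106542389-106544242, a probe that spans 1854 bases of genome and so crosses an intron): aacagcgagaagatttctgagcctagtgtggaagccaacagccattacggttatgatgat
Tie1 (chr4:118144132-118144191): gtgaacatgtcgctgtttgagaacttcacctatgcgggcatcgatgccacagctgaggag
Npr3 (chr15:11774943-11775002): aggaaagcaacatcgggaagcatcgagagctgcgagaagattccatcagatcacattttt

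The guanine and cytosine content was 45.0% in the Pecam1 and Npr3 probes and 53.3% in the Tie1 probe. The brightest probes of the other genes lay at chr8:106668159-106668218 (Cdh5, plus strand), chr5:76329309-76329368 (Kdr, minus), chr5:148465976-148466035 (Flt1, minus), chr4:94540861-94540919 (Tek, plus), chr3:137093811-137093870 (Emcn, plus) and chr2:26447977-26448036 (Egfl7, plus). The exon or untranslated region of each probe was not assigned here.

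Values are log2 of the processed spot intensity minus the 75th percentile of the array, so 0 is the level that 75% of the spots of an array lie below. Between 36.3% and 48.8% of spots were well above background on the GFP-high arrays and between 40.5% and 50.7% on the GFP-low arrays, and no spot was saturated. The lowest signal well above background lay between -3.14 and -1.70 in GFP-high and between -3.40 and -2.12 in GFP-low. A value under that limit says only that the gene was not well above background. Kcne1, the gene behind the reporter, was higher on every GFP-high array than on every GFP-low array (means 1.67 and 0.37, difference 1.29 ± 0.35, SE, limma adjusted p = 0.202), which checks the labels. All 20 cardiomyocyte markers examined were well above background on all 8 arrays, so defining markers of heart muscle were measured in both groups. Their summed linear level (75th percentile = 1) ran from 4435 to 6755 in GFP-high and from 3089 to 5258 in GFP-low.

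Transcripts of 5 of the 10 genes were detected on at least 2 arrays of each sorted group. These were the 5 genes that could be tested, and none passed the test between the groups. Of the 10 genes, 3 (Flt1, Egfl7 and Nfatc1) were well above background on all 8 arrays, 5 on some arrays and 2 (Pecam1 and Tek) on none. Over all 27729 gene names, 32.5% were above background on all 8 arrays and 35.9% on none. The number of the 10 genes above background was 5, 4, 4 and 3 on GFP-high replicates 1 to 4, against 6, 4, 8 and 5 on GFP-low replicates 1 to 4. That is 16 of 40 combinations of gene and array in GFP-high and 23 of 40 in GFP-low, and the counts of the groups overlap. GFP-low replicate 3 had the most, 8 of 10. The limma test with Benjamini-Hochberg adjustment over all genes called 18 of 12875 genes (0.14%, and 0.0699% in each direction) at an adjusted p under 0.05 and 0 of the 5 endothelial genes; at an unadjusted p under 0.05 it passed 1843 genes and again none of the 5. The 18 calls fell to 0 to 7 with any 1 array left out and to 0 with a replicate block or median scaling. In bulk RNA, fewer cells of a type and less RNA per cell cannot be told apart, and this holds for every level below.

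**Figure D1:**
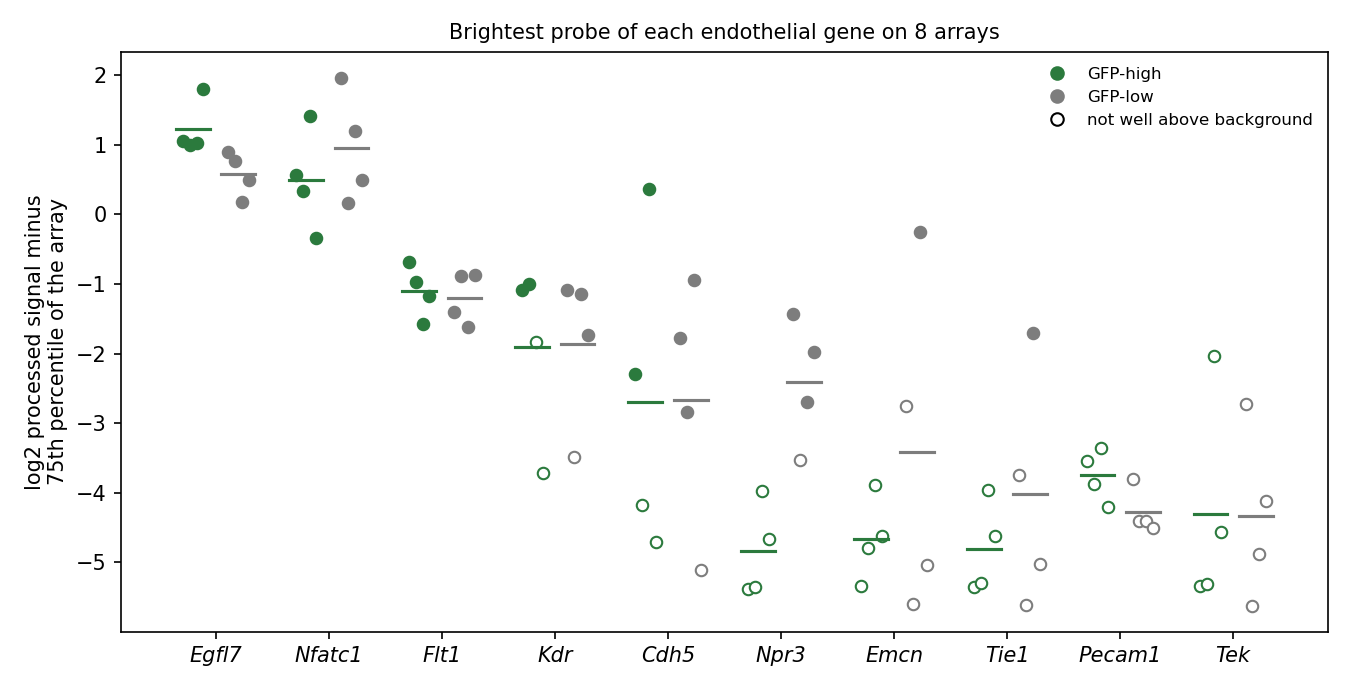
Each point is 1 array; the vertical axis is the log2 processed signal of the brightest probe minus the 75th percentile of the array, for 10 endothelial genes, with GFP-high left of GFP-low, bars at the group means and open circles for values not well above background. Egfl7 is the one gene measured on all 8 arrays whose groups do not overlap (0.99 to 1.80 in GFP-high, 0.18 to 0.90 in GFP-low), and Npr3 is open on every GFP-high array.

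The junction genes were dim. Pecam1 is printed at 10 spots, and the mean of its spots read -3.55, -3.87, -3.36 and -4.20 on the GFP-high arrays and -3.80, -4.41, -4.41 and -4.50 on the GFP-low arrays. A probe with several spots was called above background by the share of its spots (0.5), which Pecam1 reached on no array; only 2 of 10 spots did so on GFP-high replicate 1, with 0 elsewhere. By the weaker criterion of a spot significantly above the local background, an alternative added after seeing the data, Pecam1 was present on 4 of 4 arrays of each group. Its group means were -3.75 ± 0.37 in GFP-high and -4.28 ± 0.32 in GFP-low (SD, n = 4 each); both are under the limit of detection, so no fold is given.

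Cdh5 was the most variable of the 5 tested genes. It read -2.29, -4.17, 0.37 and -4.71 in GFP-high and -1.77, -2.84, -0.94 and -5.11 in GFP-low. It was well above background on 2 GFP-high arrays (replicates 1 and 3) and 3 GFP-low arrays (replicates 1, 2 and 3), and the groups overlapped over nearly their whole range. The difference was -0.03 ± 1.24 (SE, 95% interval -2.86 to 2.80, limma adjusted p = 0.994). That interval includes changes of severalfold either way, so an unequal Cdh5 level of that size was not detectable in this unpaired fit. With a block for the replicate number, an alternative, the difference was the same and its SE was 0.475. A second Cdh5 probe was above background on GFP-high replicate 1 only, at -1.11.

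Kdr, the main signalling receptor for vascular endothelial growth factor, was also printed at 10 spots, which separates the error of a spot from the spread between samples. Its mean over spots was -1.08, -1.0, -1.83 and -3.71 in GFP-high and -1.09, -3.49, -1.15 and -1.73 in GFP-low. It was not well above background on GFP-high replicates 3 and 4 and GFP-low replicate 2, where 1, 0 and 2 of its spots were. GFP-high replicate 4 and GFP-low replicate 2 lay far under the others, and the groups overlapped. The SD between spots of 1 array was 0.04 to 0.24 with a median of 0.11, while the SD between arrays was 1.26 in GFP-high and 1.12 in GFP-low. The spots of an array thus lay closer together than the arrays did, also on the arrays where Kdr was dim. For Pecam1, near background, spots differed by an SD of 0.33 to 0.76 (median 0.47) and arrays by 0.37 in GFP-high and 0.32 in GFP-low. The difference in Kdr was -0.04 ± 0.73 (SE, 95% interval -1.71 to 1.63, limma adjusted p = 0.986), and its second probe was above background on no array.

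**Figure D2:**
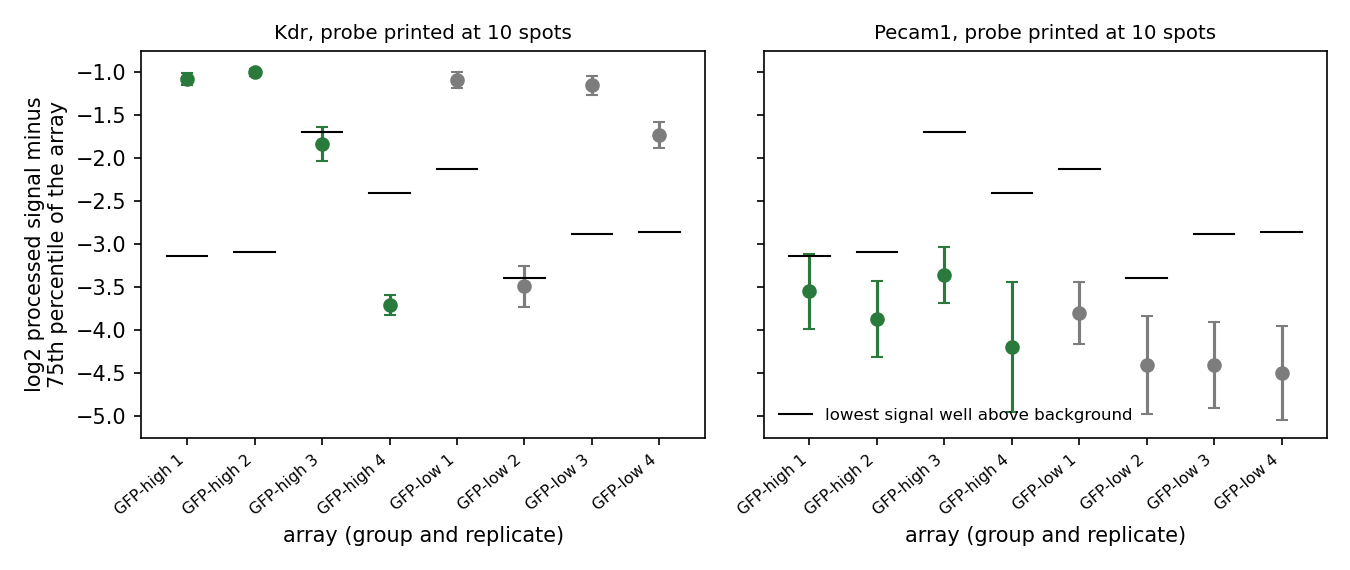
Points are means over the 10 spots of the Kdr probe (left) and the Pecam1 probe (right) on each array, on the log2 scale minus the 75th percentile of the array; error bars are the SD between spots and horizontal dashes the lowest signal well above background on that array. Kdr points differ between arrays by far more than their bars, whereas Pecam1 stays under the dash on every array.

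Flt1, the receptor that binds the same growth factor and signals weakly, had the smallest range over the 8 arrays of the 5 tested genes, 0.93. It read -0.69, -0.97, -1.57 and -1.17 in GFP-high and -1.40, -0.89, -1.62 and -0.87 in GFP-low, above background on every array, with the groups mixed. The means were -1.10 ± 0.37 and -1.20 ± 0.38 (SD, n = 4 each), a difference of 0.09 ± 0.29 (SE, 95% interval -0.58 to 0.77, limma adjusted p = 0.895). This reading rests on 1 of 5 Flt1 probes, which was designed to a cDNA clone. Both Flt1 probes designed to its RefSeq transcript were above background on no array, as was a second clone probe. The last clone probe was above background on GFP-low replicate 2 only, at -0.97. The measured probe lies 92.1 kb (mm9) from the nearest RefSeq transcript probe, within a gene that is 164.8 kb long in assembly GRCm38.p6. The probes of Flt1 thus disagree on whether the gene was measured, and which transcript the clone probe reads was not tested.

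The angiopoietin receptor genes were at the limit of detection. Tek read -5.34, -5.31, -2.03 and -4.56 in GFP-high and -2.73, -5.62, -4.88 and -4.12 in GFP-low, none well above background. Tie1 read -5.36, -5.29, -3.96 and -4.62 in GFP-high, none well above background, and -3.74, -5.61, -1.70 and -5.02 in GFP-low, where replicate 3 alone was. Emcn had the same pattern, with -5.34, -4.80, -3.89 and -4.62 in GFP-high and -2.75, -5.60, -0.26 and -5.04 in GFP-low, again only replicate 3 above background. Tie1 and Emcn are thus well above background in 1 of the 8 samples. Without GFP-low replicate 3, an alternative added after seeing the data, 4 of the 10 genes (Pecam1, Tek, Tie1 and Emcn) were above background on no array. By the weaker criterion of significance against the background, Tek was present on 1 GFP-high array and 2 GFP-low arrays. By that criterion Tie1 was present on 0 and 2 arrays, and Emcn on 1 and 2.

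Among other endothelial genes, GFP-low replicate 3 also had the most above background, 30, with 28 on GFP-high replicate 1. Of 55 other endothelial genes on the array, 7 were above background on exactly 1 array: 3 on GFP-high replicate 1 (Tal1, Rasip1 and Stab1), 1 on GFP-low replicate 1 (Sox7) and 3 on GFP-low replicate 3 (the receptor gene Acvrl1, the kinase gene Bmx and Tmem100). These names were chosen after their values were seen. Over all 2753 gene names above background on exactly 1 array, 612 (22.2%) were on GFP-high replicate 1 and 401 (14.6%) on GFP-low replicate 3.

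Egfl7, whose product endothelial cells secrete, was the only tested one of the 10 genes whose groups were apart. It read 1.06, 0.99, 1.02 and 1.80 in GFP-high and 0.90, 0.76, 0.18 and 0.49 in GFP-low. Every GFP-high value was above every GFP-low value, with GFP-high replicate 2 and GFP-low replicate 1 close to each other. Among all tested genes 8.95% had groups that do not overlap (5.86% higher and 3.08% lower in GFP-high), and 1 of the 5 endothelial genes did. The means were 1.22 ± 0.39 and 0.58 ± 0.32 (SD, n = 4 each), a difference of 0.64 ± 0.29 (SE, 1.55-fold, 95% interval -0.02 to 1.29). It did not pass over all genes (limma unadjusted p = 0.0563, adjusted p = 0.357). The exact two-sided permutation p was 0.0286, the smallest that 4 against 4 arrays can give. Groups that do not overlap always give that value, so it adds nothing to the separation. The median tested gene differed by 0.16, so Egfl7 stood less far from the median gene than from 0.

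Nfatc1 was also above background on every array. Its brightest probe (chr18:80845439-80845498, minus strand) read 0.57, 0.34, 1.41 and -0.34 in GFP-high and 1.96, 0.16, 1.20 and 0.50 in GFP-low, with the groups overlapping. The means were 0.50 ± 0.72 and 0.95 ± 0.80 (SD, n = 4 each), a difference of -0.46 ± 0.49 (SE, 95% interval -1.58 to 0.66, limma adjusted p = 0.673). A second Nfatc1 probe, at chr18:80803664-80803723, leaned the other way: -2.0, -2.67, -3.02 and -2.82 in GFP-high and -2.51, -5.63, -4.89 and -5.11 in GFP-low. It was above background on GFP-high replicates 1 and 2 and on no GFP-low array. With only the GFP-low values raised to the limit of detection, it was 1.14-fold higher in GFP-high. GFP-high replicates 3 and 4 stayed as measured, under their limits, so this is not a strict bound. The groups overlapped on this probe too, since GFP-low replicate 1 lay above GFP-high replicates 2, 3 and 4. The 2 probes of Nfatc1 therefore disagree in direction, and no direction is given for the gene.

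Npr3, like Tie1 and Emcn, was above background in GFP-low only, and on more arrays than they were. Its brightest probe read -5.38, -5.35, -3.97 and -4.66 in GFP-high, none well above background, and -1.43, -3.53, -2.69 and -1.98 in GFP-low, where replicates 1, 3 and 4 were above background. As measured, all GFP-high values lay under all GFP-low values, but the GFP-high values and that of GFP-low replicate 2 were under the limit of detection. That limit was -1.70 on GFP-high replicate 3, above the readings of GFP-low replicates 2, 3 and 4. The groups thus do not stay apart once dim values are raised to the limits of their arrays. With only 3 arrays above background the gene was not tested; its means were -4.84 ± 0.67 and -2.41 ± 0.91 (SD, n = 4 each). Raising only the GFP-high values to the limit of detection leaves Npr3 1.13-fold lower in GFP-high. GFP-low replicate 2 stayed as measured, under its limit, so this is not a strict bound. With the normexp background correction, which keeps dim spots near a common floor, the difference in Npr3 was -0.30, and with a common floor for all arrays it was -0.07. By the weaker criterion of significance against the background, Npr3 was present on 0 of 4 GFP-high arrays and 4 of 4 GFP-low arrays. The other 2 Npr3 probes were above background on no array.

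Across the 5 tested genes 2 differences were positive and 3 negative, with a median of -0.03, against a median of 0.16 over all tested genes. A list of 56 other endothelial and endocardial genes gave the same picture: 55 were on the array, 23 were tested, 10 of them positive and 13 negative, with a median of -0.03 and 0 called by limma. No gene of that list had groups that do not overlap. Between 18 and 28 of the 55 were above background on a GFP-high array and between 18 and 30 on a GFP-low array. Of the 55, 12 (21.8%) were above background on all 8 arrays, against 32.5% of all gene names. On no array above background were 15 of the 55, a smaller share than the 35.9% of all gene names. Among the 15 were Eng, the endothelial co-receptor for transforming growth factor beta, and Nos3, the endothelial nitric oxide synthase. Sox17 and Sox18, transcription factors of endothelium, and Dll4, a Notch ligand, were others. The ranks that follow use values as measured, some of them under the limit of detection. The 3 highest differences were in Robo4, an endothelial receptor of the roundabout family (2.73 ± 1.25, SE, limma adjusted p = 0.361; above background on 3 GFP-high arrays and 1 GFP-low array), Mmrn2, a matrix protein (1.76 ± 1.04, 0.456; 3 GFP-high and 2 GFP-low arrays) and Lmo2, a transcriptional adaptor (1.57 ± 0.46, 0.235; 4 and 3 arrays). With dim values raised to the limit of their arrays, Robo4 differed by 1.61, Mmrn2 by 1.43 and Lmo2 by 1.57. Lmo2 read -0.12, -0.03, -1.43 and 0.06 in GFP-high and -1.11, -2.02, -1.84 and -2.84 in GFP-low, so GFP-high replicate 3 fell among the GFP-low values. The 3 lowest were in Cd93 (-1.60 ± 1.36, limma adjusted p = 0.593), a surface receptor, Klf4 (-1.57 ± 1.06, 0.507), a transcription factor responsive to flow, and Ecscr (-1.39 ± 0.74, 0.413), an endothelial surface protein. With dim values raised, Cd93 differed by -1.17, Klf4 by -1.02 and Ecscr by -0.56. None of the 6 passed.

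**Figure D3:**
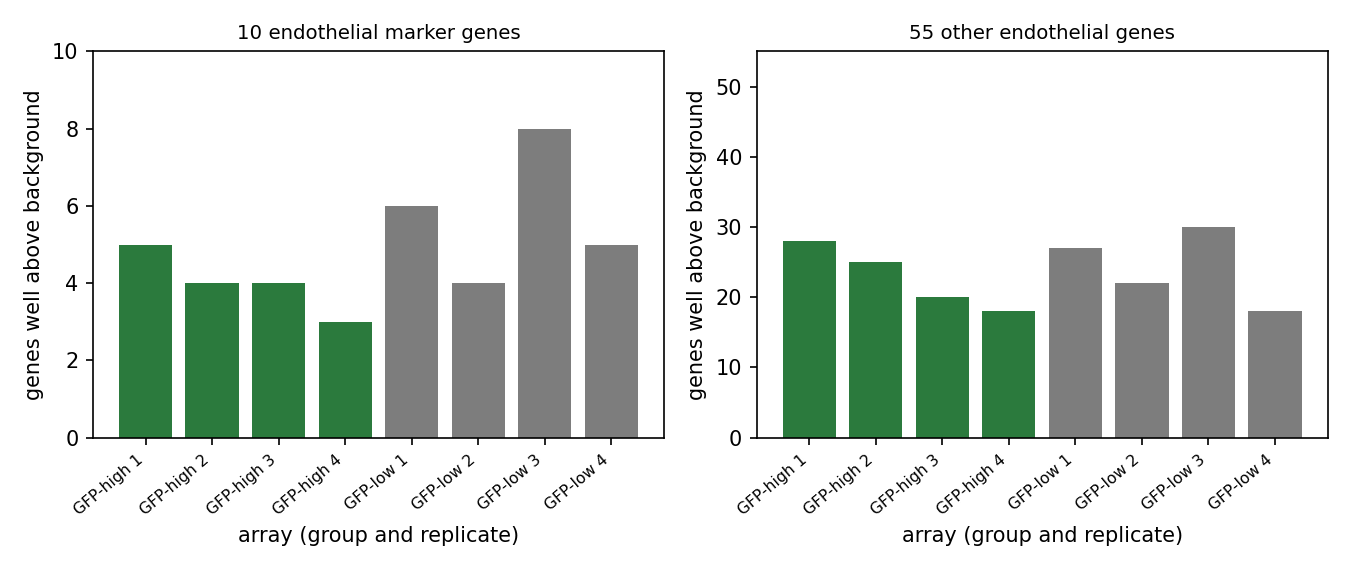
Bars count the genes well above background on each array, of the 10 endothelial markers (left) and of 55 other endothelial genes (right), with the GFP-high arrays left of the GFP-low arrays. The tallest bar in both panels is GFP-low replicate 3, with 8 of 10 and 30 of 55 genes, and the groups overlap.

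The ligands of these receptors were measured more fully, in 10 of 12 genes, with 5 differences positive, 5 negative, a median of 0.06 and 0 called by limma. Angpt1, the ligand of Tek and a product of embryonic heart muscle, had the lowest difference: -5.38, -3.96, -3.84 and -2.02 in GFP-high, where replicate 4 alone was above background, and 0.07, 1.19, 0.01 and 0.09 in GFP-low, above background on every array. All GFP-high arrays lay under all GFP-low arrays. With the 3 dim GFP-high values raised to the limit of their arrays the difference was -2.83, which is a bound, and the groups still did not overlap. As measured it was -4.14 ± 0.66 (SE, limma adjusted p = 0.0838), a size that those 3 dim values set in part. Nppa, which encodes the atrial natriuretic peptide that Npr3 clears, read 6.87, 6.32, 6.35 and 6.50 in GFP-high and 7.35, 7.42, 7.51 and 7.32 in GFP-low, again with every GFP-high value lower (-0.89 ± 0.22, limma adjusted p = 0.186). The third lowest was Nrp1, a co-receptor (-0.87 ± 0.87, limma adjusted p = 0.649). The 3 highest were Pgf, a ligand of Flt1 (2.17 ± 1.14, limma adjusted p = 0.409), Angpt2, which antagonises Tek in many settings (1.11 ± 1.27, 0.694), and Nppb, which encodes the B-type natriuretic peptide (0.48 ± 0.26, 0.429). With dim values raised, Nrp1 differed by -0.47, Pgf by 1.75 and Angpt2 by 0.72. Nppc was above background on no array. Of the 10, Angpt1 and Nppa had groups that do not overlap, both lower in GFP-high, against 3.08% of all tested genes in that direction.

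Of 15 relatives and pathway partners of the 10 genes, 14 were tested, 7 positive and 7 negative, with a median of 0.01 and 0 called by limma. The highest were Nfatc4, a relative of Nfatc1 (1.36 ± 0.31, SE, limma adjusted p = 0.159), Npr2, the receptor for C-type natriuretic peptide (1.21 ± 0.50, 0.33), and Rcan1, a regulator of calcineurin and a known target of the NFAT factors (1.11 ± 0.27, 0.177). The lowest were Ppp3cb, a catalytic subunit of calcineurin, the phosphatase that activates NFAT (-1.82 ± 0.54, limma adjusted p = 0.236), Cdh2, the cadherin of heart muscle (-1.54 ± 0.48, 0.244), and Ppp3r1, the regulatory subunit of calcineurin (-1.03 ± 0.35, 0.271). Nfatc4 and Rcan1 were higher, and Ppp3cb and Cdh2 lower, on every GFP-high array than on every GFP-low array, against 5.86% of all tested genes higher and 3.08% lower, and none of them passed.

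The 5 genes did not all rise and fall together over the 8 arrays. Cdh5, Kdr and Nfatc1 correlated positively in their 3 pairs (0.32, 0.74 and 0.64), while Flt1 and Egfl7 correlated negatively with all 3 of them. Over the 10 pairs of the 5 tested genes, Pearson's r ran from -0.67 to 0.74 with a median of -0.21; 4 of the 10 were positive and 2 were above 0.5. Over all 82799146 pairs of tested genes the median was 0.04, 53.1% were positive and 17.6% were above 0.5. These values describe the 8 arrays, which all pairs share together with the scaling to the 75th percentile. Centred within groups, the median over the 5 genes was -0.23. Cdh5 and Kdr were each under the limit of detection on 3 of the 8 arrays, so their correlations rest partly on dim values. The highest pair was Cdh5 with Nfatc1 (r = 0.74, Spearman's rho = 0.76, and r = 0.80 without the 2 arrays farthest in Cdh5). Next was Kdr with Nfatc1 (0.64, rho 0.40), which was -0.06 without the 2 arrays farthest in Kdr and 0.98 with slide and group centred. That centring leaves only the difference between the 2 arrays of each slide and group, so the 0.98 rests on fewer independent values than the 8 arrays. With dim values raised to the limit of their arrays, an alternative added after seeing the data, Cdh5 with Nfatc1 was 0.65, Kdr with Nfatc1 0.54, and the median of the 10 pairs -0.18. The lowest were Cdh5 with Flt1 (-0.67, rho -0.64) and Flt1 with Nfatc1 (-0.63, rho -0.45).

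**Figure D4:**
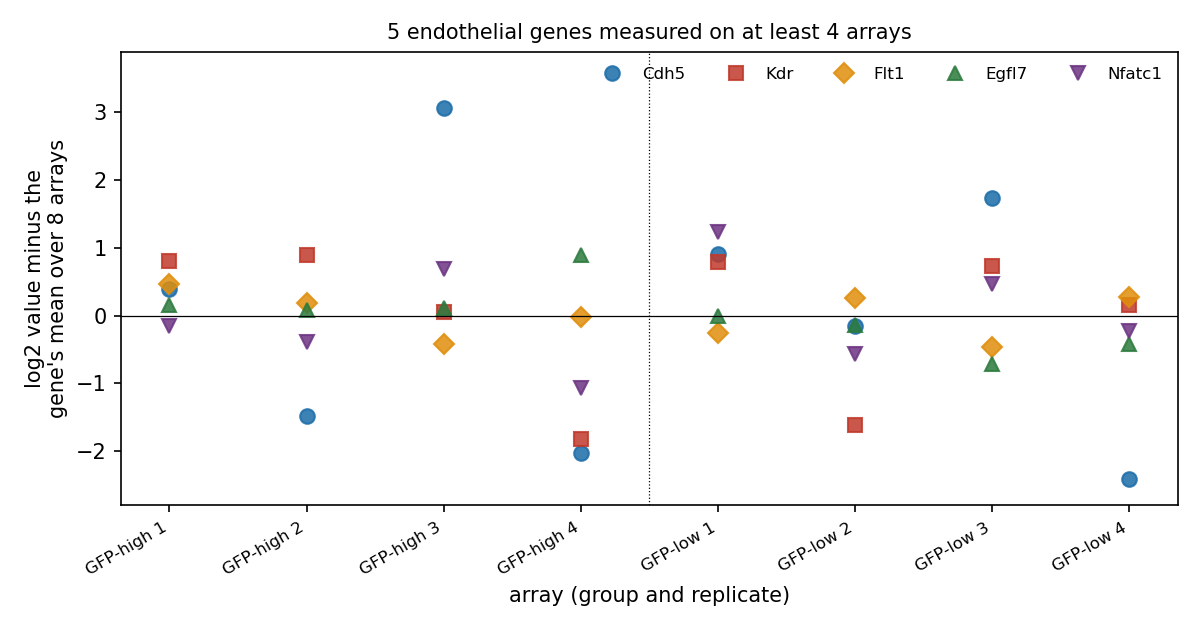
The vertical axis is the log2 value of each of 5 endothelial genes minus that gene's own mean over the 8 arrays, and the horizontal axis lists the arrays, with GFP-high left of GFP-low. On GFP-high replicate 3 Cdh5 lies 3.06 above its mean while Flt1 lies 0.42 below its own, and on GFP-high replicate 4 Egfl7 lies 0.90 above while Kdr lies 1.82 below.

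No array was high or low in all 5 genes. Relative to each gene's own mean, 4 of 5 genes were high on GFP-high replicates 1 and 3. The same count held on GFP-low replicate 1, where Egfl7 was barely above its mean. On GFP-high replicate 4 and GFP-low replicate 2, 1 of 5 was high. The mean profile of the 5 genes was carried by the most variable, with 63.3% of the summed variance in Cdh5, 21.1% in Kdr, 9.65% in Nfatc1, 3.88% in Egfl7 and 2.11% in Flt1; with dim values raised, Cdh5 held 46.3% and Kdr 23.5%. With that mean, r was 0.88 for Cdh5 and for Nfatc1, 0.69 for Kdr, -0.31 for Egfl7 and -0.53 for Flt1. Among the 10 genes most like the mean, of 12864 compared over the 8 arrays, were Hsd17b7 (r = 0.97), Nudt2 (0.96), Nhlrc2, Hnrnph3, Dip2a, Hnrnpm, Map4 and Epas1 (0.95 each) and a transcript cluster with no current symbol (0.94); 46 genes had an r above 0.9. Epas1 is a hypoxia-inducible factor of endothelium; the other named genes serve sterol metabolism, RNA binding, microtubules and other functions that most cells use.

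Cdh5 and Nfatc1 were highest, and Flt1 lowest, on the 3 arrays with the most signal from genes of another cell type. The summed level of the 14 erythroid and megakaryocyte genes on the array, on a linear scale with the 75th percentile at 1, was 36.84, 53.93, 202.1 and 32.59 in GFP-high and 189.86, 50.40, 134.16 and 22.66 in GFP-low. GFP-high replicate 3 and GFP-low replicates 1 and 3 thus stood above the other 5 arrays, and both groups were represented. The same 3 arrays had the highest 75th percentiles of signal, which are taken off every value. These were 183.9, 195.6 and 216.9, against 137.6 to 156.4 on the other 5 arrays. Ermap, an erythroid membrane protein gene, was above background on no array. These 3 arrays held the 3 highest values of Cdh5 (0.37, -1.77 and -0.94) and of Nfatc1 (1.41, 1.96 and 1.20), and the 3 lowest of Flt1 (-1.57, -1.40 and -1.62). Egfl7 did not follow (1.02, 0.90 and 0.18). Tek, Tie1 and Emcn had their highest value on one of these 3 arrays as well; of these only the Tie1 and Emcn values of GFP-low replicate 3 were well above background. Because the arrays fall into 2 sets on this sum, no correlation is given.

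**Figure D5:**
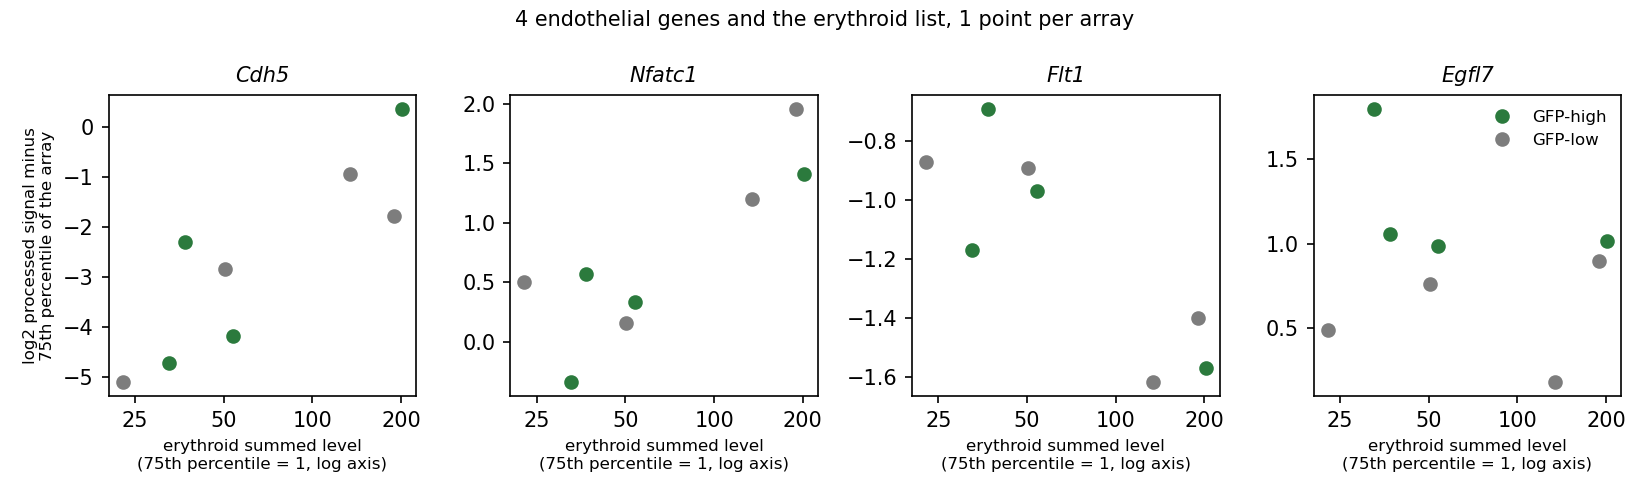
Each point is 1 array; the horizontal axis is the summed linear level of the erythroid genes (75th percentile = 1, log axis) and the vertical axis the log2 level of Cdh5, Nfatc1, Flt1 and Egfl7. The 3 arrays to the right, with sums of 134.16 to 202.1, hold the highest Cdh5 and Nfatc1 and the lowest Flt1.

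The same pattern was counted over other genes, after it had been seen. Of 23 other tested endothelial genes, 4 (17.4%: Klf4, Cd34, Cd93 and Tspan18) had their 3 highest values on these arrays and 3 (13%: Klf2, Cldn5 and Plxnd1) their 3 lowest. Over all tested genes 4.74% had their highest and 13.9% their lowest values there. Of the 5 genes above, 2 (Cdh5 and Nfatc1) had their highest and 1 (Flt1) its lowest values there. Of 20 cardiomyocyte genes, 0 had their highest and 7 (35%) their lowest values there, among them Tnnt2, Myl2 and Ttn. GFP-high replicate 3 and GFP-low replicate 1 also had the fewest spots above background of the 8 arrays, 36.3% and 40.5%. The part of blood cells, of fewer muscle cells and of array sensitivity in the levels of Cdh5, Nfatc1 and Flt1 was not tested.

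Markers of further cell types that the sort could hold were compared between the groups, and 0 genes of any of these lists were called by limma. The epicardial list had 8 of 15 genes tested, all 8 positive, a median of 0.57, and a summed level of 28.12 to 41.54 in GFP-high against 17.8 to 26.06 in GFP-low, with no overlap. The largest part of that sum was Krt18, a keratin gene, at 15.35 to 26.49 in GFP-high and 9.46 to 16.27 in GFP-low, which overlap. The other genes summed to 12.77 to 19.27 in GFP-high and 8.34 to 12.43 in GFP-low, with no overlap. Highest among these were the keratin genes Krt8 (log2 means 2.42 in GFP-high and 1.43 in GFP-low) and Krt19 (2.11 and 1.67), then Tbx18 (1.89 and 1.38). Wt1, Tcf21 and Aldh1a2 had group means between -3.38 and -2.13 and added little to the sum. Of all tested genes 62.0% had a positive difference, with a median of 0.16, and 0 of the 8 epicardial genes had groups that do not overlap by themselves, against 8.95% of all tested genes; Upk3b, Upk1b, Msln, Lrrn4, Muc16, Bnc1 and Sema3d were above background on no array. The leukocyte list had 3 of 16 tested, a median of 0.94 and sums of 12.08 to 16.42 in GFP-high against 4.21 to 6.85 in GFP-low, with no overlap. That sum is mostly Lyz2, a lysozyme gene of myeloid cells and named here after its values were seen, at 10.16 to 13.98 in GFP-high and 3.36 to 4.99 in GFP-low; the other genes summed to 1.52 to 2.44 in GFP-high and 0.85 to 2.63 in GFP-low and did overlap, with Ptprc, Csf1r, Itgam, Laptm5 and Spi1 above background on no array. In cushion mesenchyme, which descends in part from endocardium, 9 of 20 were tested with a median of -0.77 and sums of 57.34 to 69.61 in GFP-high against 55.12 to 82.76 in GFP-low, and Snai1, Snai2 and Msx1 were above background on no array. Smooth muscle (11 of 12 tested), neural crest and neuron (7 of 18) and erythroid genes (9 of 14) had medians of 0.06, 0 and -0.03. Sums of the other endothelial genes were 74.90 to 117.22 in GFP-high and 63.38 to 118.21 in GFP-low.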

How the data were processed

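Expression was measured on 8 one-colour Agilent arrays, 4 per group. The deposited values are linear spot intensities. Agilent Feature Extraction 10.5.1.1 produced them, as the submitters' processing notes say, and per the file headers it subtracted background and replaced the lowest values by surrogates (34.8% to 49.4% of spots). The authors' series table held the same intensities in all 45018 spots. Here each array's 75th percentile was taken off the log2 processed signal, control and outlier spots were left out, and spots of a probe were averaged. Gene names were updated through assembly GRCm38.p6 (33070 of 41174 probes); coordinates are the files' own, on mm9. The brightest probe stood for a gene, which was tested if well above background on at least 4 arrays. Groups were compared with limma 3.58.1 in R 4.3.3 (lmFit and eBayes, group only, Benjamini-Hochberg over 12875 genes, adjusted p under 0.05). A bound raises dim values to their array's lowest signal well above background. For Npr3 and the second Nfatc1 probe only the group with no array above background was raised. Correlations are descriptions.

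The 10 genes and all lists were chosen with earlier results of these data known. Named are the 10 genes, the 3 highest and 3 lowest tested genes and any called gene of the endothelial, ligand and relative lists, the 10 genes most like the mean profile, and for other cell types the markers never above background; other names were chosen after their values were seen, and some genes that the rule names are not reported here. On simulated arrays of 12869 genes for GFP-high against GFP-low, the fit recovered 2.99% of genes changed by 1 on the log2 scale, 56.7% of those changed by 2 and 71.2% of those changed by 4, with 5.43% of calls false. The number of arrays limits the precision, and p-values measure the spread between these samples. Slide 1 held replicates 1 and 2 and slide 2 replicates 3 and 4 of both groups. Alternatives varied the scaling, background correction, filters, probe choice, slide and replicate blocks and the arrays used.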

Additional observations from a re-analysis of the deposited data

Results flagged for a closer look

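In all, 18 sets of 4 arrays of a group were examined, for a probe or for the share of spots well above background. A probe entered in a group only if well above background there on at least 1 array. Of the 18 sets 2, both of a probe, held an array far from the other 3. For normal values chance gives about 1 in 20, a rate that does not hold for a probe that entered through 1 array. In GFP-high, Egfl7 read 1.80 on replicate 4, while the other 3 arrays lay between 0.99 and 1.06, so the gap is 0.912 of the range. Without that array the groups still do not overlap, and over all left-out arrays the difference in Egfl7 lay between 0.44 and 0.74. In GFP-low, the Flt1 clone probe at chr5:148457132-148457191 read -0.97 on replicate 2 and was not well above background on the other 3 arrays (gap 0.83 of the range). The gap rests on those dim values: with them raised to the limit of their arrays it is 0.605 of the range, under what marks an array as apart. The Flt1 probe measured on every array read -0.89 on that replicate, against -0.87 on GFP-low replicate 4, so it did not stand apart there.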

How the results depend on the processing

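In all 25 alternatives 0 of the measured endothelial genes were called, and Egfl7 stayed positive and Nfatc1 negative; adjusted p lay between 0.262 and 0.923 for Egfl7 and between 0.375 and 0.999 for Nfatc1. Differences near 0 changed sign. Cdh5 was 0.23 with normexp, 0.03 with normexp and quantile scaling, 0.33 with a common floor and 0.86 within slide 2. Kdr was 0.13 with normexp, 0.01 with normexp and quantile scaling, 0.04 with the floor and 1.25 within slide 1. With dim values raised to their arrays' limits, chosen after seeing the data, Cdh5 was 0.25 and Kdr 0.30. Flt1 was -0.01 when scaled to probes detected on all arrays, -0.01 with normexp and quantile scaling and -0.13 within slide 2. With 1 array left out, Cdh5 ran from -1.06 to 0.64, Kdr from -0.58 to 0.56, Flt1 from -0.05 to 0.25 and the median of the 5 genes from -0.17 to 0.44.

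The median r of the pairs was -0.04 when scaled to the median, -0.45 for the 3 genes above background on all 8 arrays and 0.04 as Spearman's rho. It was -0.54 with slide and group centred, which leaves only the difference between the arrays of a slide and group. It was -0.05 without GFP-high replicate 4 and GFP-low replicate 4, and -0.34 to 0.05 with 1 array left out, highest without GFP-high replicate 4. The 18 calls over all genes became 4 (percentile of probes detected on all arrays), 0 (median scaling), 9 (quantile), 42 (common floor), 11 (detected on all 8 arrays), 3 (no filter), 7 (every probe), 11 (slide as a block), 0 (within slide 1), 0 (within slide 2) and 0 to 7 (1 array left out). They split 9 higher and 9 lower, against 14 and 6 with normexp, 12 and 4 with normexp and quantile, 4 and 5 with quantile, 32 and 10 with the floor, 14 and 5 with a trended, robust fit and 3 and 8 with the slide block. The median of all tested genes lay between 0.05 and 0.16 under the scalings. The causes were not tested.

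Same-numbered arrays correlated at 0.114, 0.153, 0.303 and 0.065 in their deviations from the group means, so the numbers were not taken as pairs, although 7 of 8 arrays correlated best with their own number. With a replicate block 0 genes were called (lowest adjusted p 0.134; 2381 at an unadjusted p under 0.05); the block cannot move a difference here, and no endothelial gene was called, while the SE became 0.475 for Cdh5 (1.24 without the block) and 0.356 for Nfatc1 (0.492 without it). Of the 10 genes, 2 were above background on no array; this became 4 without GFP-low replicate 3 and 0 by significance against background, both chosen after seeing the data. The 10 genes are mostly dim, and a dim value has only a bound.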
